A study of Homo sapiens with 10 samples.

Results

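Genes of TGF-beta signalling and target genes of the co-activator YAP were followed in U2OS cells after a short inhibition of the cyclin D-dependent kinases. The set holds 31 genes named from textbook roles: ligands, receptors and SMAD transducers, SMAD feedback genes and repressors, ID genes, matrix and contractile targets, and YAP targets. Each gene was read from the probe set annotated to that symbol alone, or from the one with the highest mean over the 10 arrays where there were several. This gave values for 28 of the 31, out of 14232 genes measured in this way. TAGLN, ACTA2 and AMOTL2 share their probe sets with other symbols and are not reported here.

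TGF-beta ligands are secreted in a latent form, and once released they bind the type II receptor TGFBR2, which activates the type I receptor TGFBR1. The receptor phosphorylates SMAD2 and SMAD3, which enter the nucleus with SMAD4 and switch on target genes, among them SMAD7, SKIL and PMEPA1, whose products damp the signal. YAP is held out of the nucleus when the Hippo kinases LATS1 and LATS2 phosphorylate it. In the nucleus it works with TEAD factors on genes such as CCN1, CCN2 and ANKRD1, some of which also respond to SMADs, so both pathways meet on shared targets in mesenchymal cells.

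U2OS is a human osteosarcoma line. The tested cells received PD0332991 (palbociclib), an inhibitor of CDK4 and CDK6, for 4 h, and the controls received the solvent DMSO for 4 h. Both were grown beforehand in McCoy medium with fetal bovine serum. The labels give the dose as 1 mM. Work with this compound usually states micromolar amounts, and the unit could not be checked here. There were 5 biological replicates per treatment, all from 1 cell line, read on Affymetrix exon arrays as log2 values per gene-level probe set. Because each array averages over all cells of a dish, a change in a fraction of cells and a smaller change in every cell cannot be told apart.

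The array names in the labels form 2 sets. Replicates 4 and 5 of each treatment make up array set 2, and replicates 1 to 3 array set 1. Array medians lay between 6.95 and 7.06 (log2). DMSO replicate 1 stood apart: its interquartile range was the narrowest at 3.18 (3.32 to 3.68 on the other arrays), limma gave it an array weight of 0.147 (0.504 to 2.07 on the others), and the genes in the brightest of 3 equal classes of probe sets had a mean deviation of -0.14 from their own averages (-0.05 to 0.06 on the other arrays). Of 28 measured members, 26 belong to those bright genes, but they did not all read low there: DMSO replicate 1 was the lowest of the 10 arrays for 10 members and the highest for 6 (TGFB1, SMAD3, TGIF1, ID3, LATS2 and AXL). Of 9 measured mesenchymal markers, 7 lay in the brightest class, among them VIM and SPARC, and 2 in the middle class (RUNX2 and TWIST1). Of 8 epithelial markers 4 lay in the dimmest class, 2 in the middle and 2 in the brightest (KRT8 and KRT18). Of 7 blood cell markers 4 lay in the dimmest class, among them PTPRC, 2 in the middle (CD14 and SPI1) and 1 in the brightest (CD68). No marker of the 3 lists passed the treatment test.

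No member changed detectably after 4 h of PD0332991. In limma with array set as a covariate, 0 of 28 members passed an adjusted p of 0.05 and every member had an adjusted p of 1.00. The same fit called 2 of 21980 probe sets higher (0.0091%) and 9 lower (0.0409%), so an absence of calls is what this background gives for a set of 28. At an unadjusted p under 0.05, limma gave 2 members as higher (TGFB2 and SKIL) and 0 as lower, where the background was 1.41% higher and 2.76% lower. The intervals bound how large a change could be: for 25 of 28 members the 95% confidence interval lay within 1.5-fold in both directions. This held for 74.4% of all probe sets and for 4309 of the 4925 bright genes, the class of 26 members. The members that fell outside were SKIL and ANKRD1, with upper limits of 1.70-fold each, and ID2, with a limit of 1.62-fold lower.

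**Figure D1:**
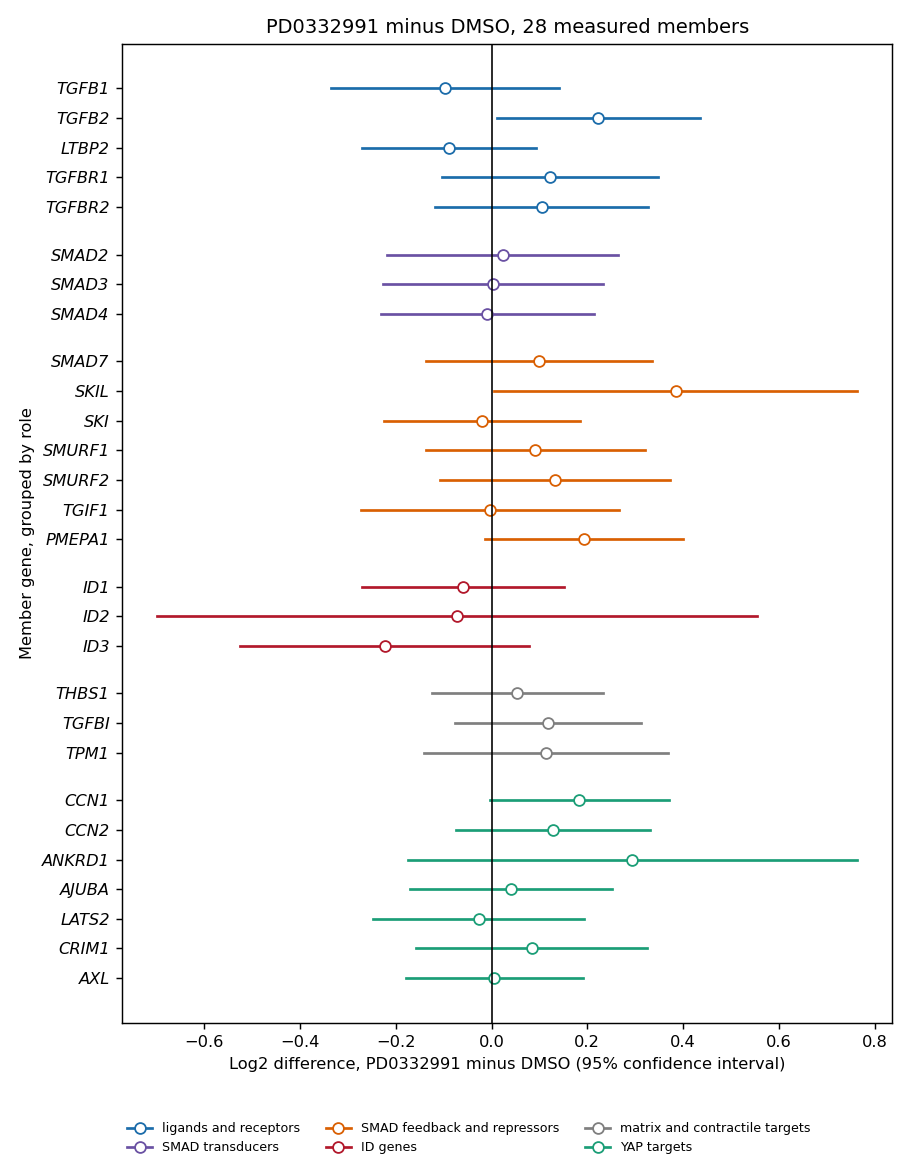
Log2 difference between PD0332991 and DMSO for each measured member (point) with its 95% confidence interval from limma (line), grouped and coloured by role. The values run from -0.22 (ID3) to 0.38 (SKIL), and open points mark that no member passed the adjusted threshold.

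By role, the 5 ligands and receptors, among which the matrix protein gene LTBP2 was counted, had a median log2 difference of 0.10 (3 higher). The 3 SMAD transducers had 0.00 (2 higher), and both lists together gave 0.01 over 8 pathway components. The 7 feedback genes and repressors had a median of 0.10 (5 higher), the 7 YAP targets 0.08 (6 higher), the 3 matrix and contractile targets 0.11 (3 higher) and the 3 ID genes -0.07 (0 higher). Over all 28 members the median was 0.07 with 67.9% above 0, beside -0.02 and 44.7% for all 14232 genes and 0.02 and 55.6% for the bright genes. These are descriptions without a test, and the sizes of the medians lean on DMSO replicate 1. On that array the mean deviation of the YAP targets was -0.17 (-0.05 to 0.13 on the other arrays), that of the feedback genes -0.18 (-0.06 to 0.12) and that of the matrix targets -0.17 (-0.07 to 0.17). Without that array the medians were 0.03 for the YAP targets, 0.06 for the feedback genes and 0.04 for the matrix targets. They were 0.06 for the ligands and receptors, -0.04 for the SMAD transducers and -0.14 for the ID genes. All members had 0.04, beside 0.01 for all genes and -0.004 for the bright genes. The median of the ID genes was thus farther from 0 without DMSO replicate 1, and -0.23 with array weights. Members above 0 numbered 20 of 28 without that array and 19 with it. The YAP targets then had 7 of 7 above 0, the feedback genes 6 of 7 and the SMAD transducers 1 of 3. Of the 4925 bright genes, 2374 were above 0 without that array and 2738 with it. Of the 28 members, 19 moved by over 1.5 times or turned sign without it: 12 were smaller, 4 larger (SMAD3, SMAD4, ID2 and AXL) and 3 turned (SMAD2, TGIF1 and LATS2). The part of this array in the treatment differences was not tested beyond these values.

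**Figure D2:**
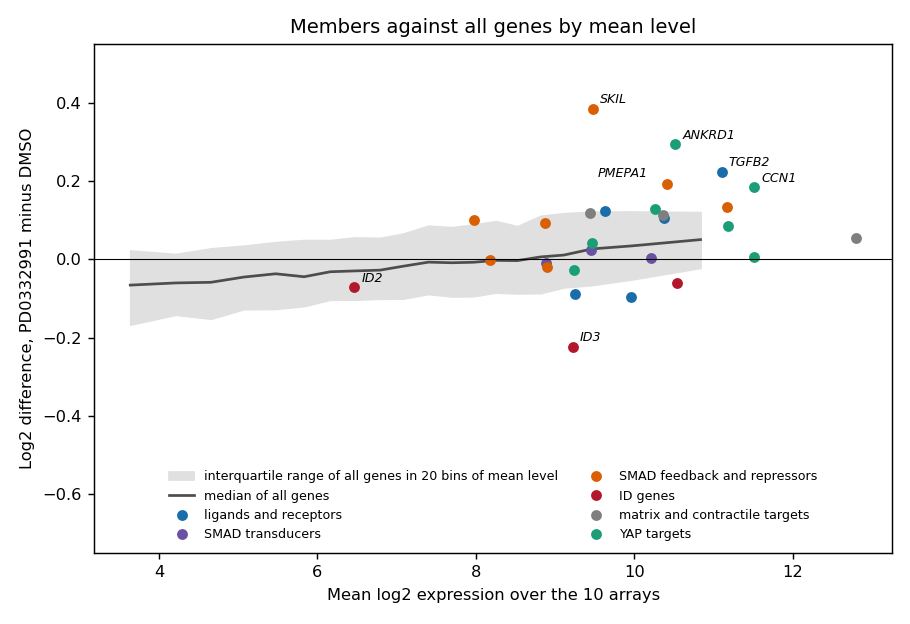
Log2 difference between PD0332991 and DMSO (vertical axis) against the mean log2 level over the 10 arrays (horizontal axis) for the members (points, coloured by role), with the median (line) and the interquartile range (grey band) of all genes in 20 bins of mean level. The line climbs with level, the median being -0.05 among the dimmest and 0.02 among the brightest of 3 level classes, and most members lie on its right-hand side. Without DMSO replicate 1 these medians were 0.023 and -0.004, so the climb was not kept without that array.

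Among the ligands, TGFB2, an isoform prominent in development and in mesenchymal tissue, had the clearest separation. Its values on replicates 1 to 5 were 11.28, 11.23, 11.44, 10.92 and 11.18 (log2) with PD0332991, against 11.12, 11.07, 11.06, 10.96 and 10.73 with DMSO. Of the treated arrays, 4 lay above the highest DMSO array, while PD0332991 replicate 4 lay just under DMSO replicate 4 of its own set. The difference was 0.22 ± 0.10 (SE, n = 5 arrays per treatment), or 1.17-fold with a 95% confidence interval of 1.01 to 1.35 (limma adjusted p = 1.00). It was 0.21 in array set 2 and 0.23 in array set 1. TGFB1, the most widely expressed isoform, had 9.83, 9.97, 9.65, 10.01 and 10.06 with PD0332991 and 10.18, 10.03, 9.90, 10.00 and 9.90 with DMSO. Its groups overlapped and its difference of -0.10 ± 0.11 (-0.04 without DMSO replicate 1) was made of 0.09 in set 2 and -0.22 in set 1. LTBP2, a matrix protein of the latent TGF-beta binding protein family, had -0.09 ± 0.08.

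The receptors moved little: TGFBR1 had 0.12 ± 0.10 and TGFBR2 0.10 ± 0.10 (SE, n = 5), and all 5 treated arrays of each lay above the DMSO mean of their own set without clearing the DMSO arrays. Without DMSO replicate 1 TGFBR1 had 0.06 and TGFBR2 0.14. The SMAD transducers had differences near 0. SMAD3 averaged 10.20 ± 0.08 with PD0332991 and 10.20 ± 0.17 with DMSO (SD, n = 5), SMAD4 8.88 ± 0.12 and 8.89 ± 0.16, and SMAD2 9.46 ± 0.15 and 9.44 ± 0.14. Their intervals allow at most a 1.20-fold rise (SMAD2) and a 1.17-fold fall (SMAD4). A second single-symbol probe set of SMAD2 gave 0.18 with an interval of -0.14 to 0.51, which overlaps that of the brighter one. CDK4 and CDK2 are known to phosphorylate SMAD3, an event that these transcript values do not read.

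Of the feedback genes, SKIL, which encodes the SMAD corepressor SnoN, had the largest difference of all members and one of the widest spreads. It read 9.77, 9.58, 10.02, 9.16 and 9.78 with PD0332991, against 8.97, 9.53, 9.72, 9.13 and 9.04 with DMSO. Treated replicates 1, 3 and 5 stood above every DMSO array, replicates 2 and 4 did not, and DMSO replicate 1 was the lowest of all 10. The difference was 0.38 ± 0.17 (SE, n = 5), or 1.31-fold (1.00 to 1.70, limma adjusted p = 1.00), and alike in the array sets, at 0.38 in set 2 and 0.39 in set 1. Without DMSO replicate 1 it was 0.27. Its replicate SD within treatment and array set was 0.32, larger than that of 80.7% of genes.

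PMEPA1, a transmembrane protein that sequesters SMAD2 and SMAD3 away from the receptor, had 10.41, 10.30, 10.52, 10.65 and 10.62 with PD0332991 and 10.20, 10.01, 10.20, 10.61 and 10.53 with DMSO. Within each set the treated arrays stood above the DMSO arrays. The lowest treated and highest DMSO array were 10.62 and 10.61 in set 2 and 10.30 and 10.20 in set 1. The means differed by 0.07 in set 2 and 0.28 in set 1, and the overall difference was 0.19 ± 0.09 (SE, n = 5). SMAD7, the inhibitory SMAD that recruits SMURF ligases to the receptor, had 7.90, 8.00, 7.76, 8.40 and 8.09 with PD0332991 and 7.55, 7.82, 7.77, 8.22 and 8.30 with DMSO. It overlapped in both sets, with a difference of 0.10 ± 0.11 that was 0.04 without DMSO replicate 1. The ubiquitin ligase genes SMURF2 and SMURF1 had 0.13 ± 0.11 and 0.09 ± 0.10, which were 0.06 and 0.05 without that array. The corepressor genes SKI (-0.02 ± 0.09) and TGIF1 (-0.00 ± 0.12) had differences near 0, TGIF1 turning to 0.08 without it.

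PMEPA1 and CCN1 were the 2 members whose treated arrays all lay above every DMSO array of their own set, a pattern that 0.814% of all probe sets had. No member had the opposite pattern, which 1.45% of probe sets had. After quantile normalization 1 member was above in this way.

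The YAP targets encode secreted, scaffold, receptor and kinase proteins. CCN1 and CCN2 encode matricellular proteins, also known as CYR61 and CTGF, and ANKRD1 encodes an ankyrin repeat protein of muscle and stressed mesenchymal cells. In RefSeq promoter windows (GRCh38.p14, 250 bases before to 50 after a start) the TEAD core GGAATG, searched on both strands, was found in at least 1 window of 6 of the 6 YAP targets in that table, of 6 of the 21 other members and of 16.7% of all 27305 genes. A gene with several starts has several chances of a match, and a match is a run of letters, not proof of a bound site. CCN2 carried 3 matches, at -169, -104 and -95 from the start, and ANKRD1 2, at -220 and -128. The SMAD letters CAGACA were found in 11 of 27 members (19.9% of all genes) and the AP-1 letters TGANTCA in 4 (9.37%), none of them overlapping another match. The 250 bases before the start are shown for CCN2 and ANKRD1, the YAP targets with the most TEAD matches, and for TGFB2, the ligand described above, with every match in capitals (GGAATG or its complement CATTCC for TEAD, CAGACA for SMAD, TGATTCA for AP-1).
CCN2, chr6:131951373-131951622, minus strand: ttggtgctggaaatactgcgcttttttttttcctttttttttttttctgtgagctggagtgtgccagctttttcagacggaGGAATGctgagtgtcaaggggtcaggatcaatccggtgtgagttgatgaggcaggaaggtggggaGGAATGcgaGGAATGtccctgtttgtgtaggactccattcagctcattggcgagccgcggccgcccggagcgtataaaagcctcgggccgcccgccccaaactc
ANKRD1, chr10:90921088-90921337, minus strand: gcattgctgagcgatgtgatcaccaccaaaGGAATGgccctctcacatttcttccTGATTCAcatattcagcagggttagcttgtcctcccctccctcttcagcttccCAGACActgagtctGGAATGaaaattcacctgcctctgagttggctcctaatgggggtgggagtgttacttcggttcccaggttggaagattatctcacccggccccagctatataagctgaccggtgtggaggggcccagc
TGFB2, chr1:218345086-218345335, plus strand: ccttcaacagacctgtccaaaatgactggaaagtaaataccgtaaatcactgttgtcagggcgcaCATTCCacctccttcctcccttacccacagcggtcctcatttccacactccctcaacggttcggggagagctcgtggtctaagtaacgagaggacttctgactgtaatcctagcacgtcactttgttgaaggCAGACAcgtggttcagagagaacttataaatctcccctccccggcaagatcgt

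CCN1 read 11.39, 11.45, 11.47, 11.83 and 11.86 with PD0332991, against 11.09, 11.32, 11.28, 11.72 and 11.67 with DMSO. Each treated array was above both or all DMSO arrays of its set, by a small margin, and the difference was 0.18 ± 0.08 (SE, n = 5; 1.14-fold, 0.998 to 1.29, limma adjusted p = 1.00). CCN2 read 9.88, 10.00, 9.89, 10.88 and 10.96 with PD0332991, against 10.01, 9.80, 9.69, 10.73 and 10.75 with DMSO. All 5 treated arrays were above the DMSO mean of their set, but in set 1 DMSO replicate 1 was the highest, and the difference was 0.13 ± 0.09 (1.09-fold, 0.95 to 1.26).

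ANKRD1 was the most variable YAP target. It read 10.77, 11.00, 10.34, 10.40 and 10.79 with PD0332991, against 9.90, 11.04, 10.57, 10.13 and 10.19 with DMSO, so that the highest and the lowest array of all 10 were both DMSO. Its difference of 0.29 ± 0.21 (SE, n = 5) had an interval of 0.89-fold to 1.70-fold and was 0.14 without DMSO replicate 1. The replicate SD of ANKRD1 was 0.40, larger than that of 93.1% of genes, although the median member had 0.13 and the median gene 0.22. The remaining YAP targets stayed near 0: CRIM1, a transmembrane protein that binds growth factors of the TGF-beta family, at 0.08 ± 0.11 (0.02 without DMSO replicate 1), AJUBA, a LIM protein that inhibits LATS kinases, at 0.04 ± 0.09, the receptor tyrosine kinase gene AXL at 0.01 ± 0.08 and LATS2, the Hippo kinase that YAP induces as its own brake, at -0.03 ± 0.10.

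**Figure D3:**
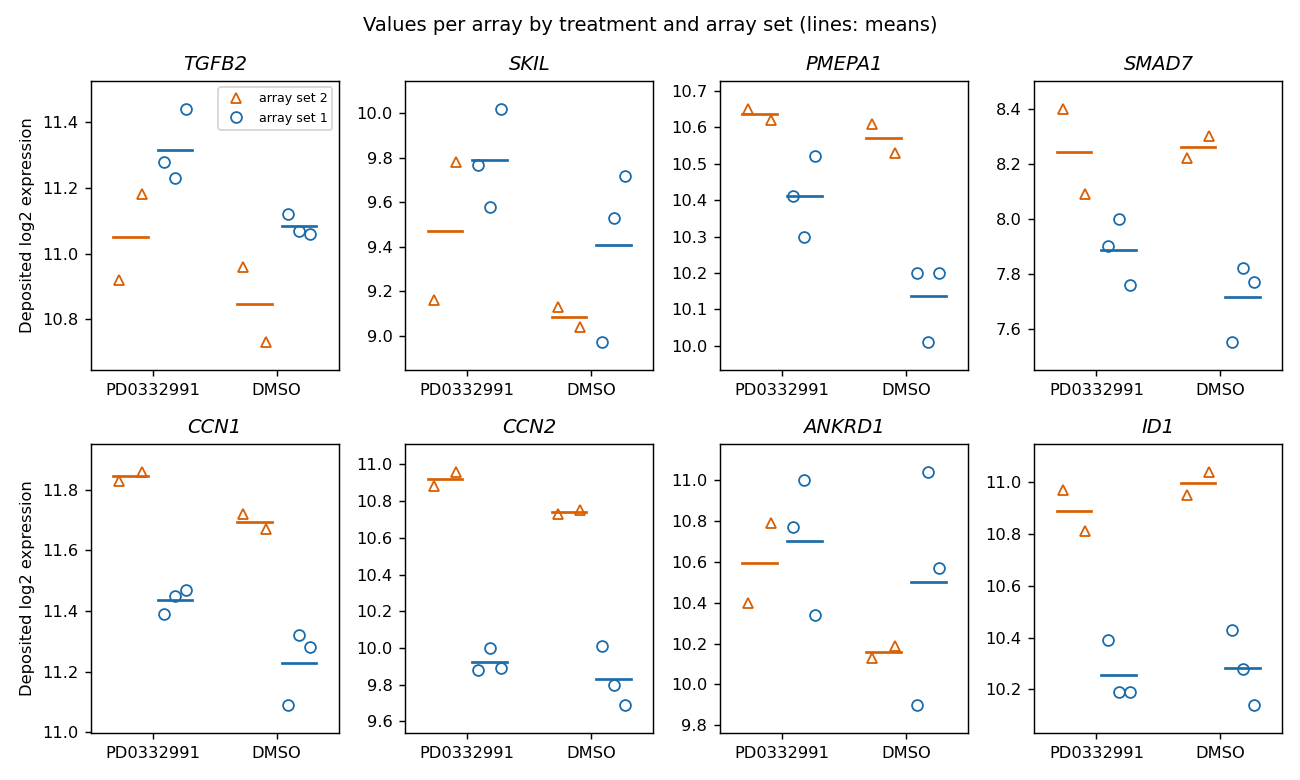
Deposited log2 values on each array for 8 members, with PD0332991 left of DMSO, triangles for array set 2, circles for array set 1 and lines for the mean of each treatment and set. Treated arrays lie above the DMSO arrays in both sets for PMEPA1 and CCN1. They do so in set 1 for TGFB2 and in set 2 for SKIL, CCN2 and ANKRD1, and overlap with DMSO arrays in the remaining sets. CCN2, CCN1, SMAD7, PMEPA1 and ID1 separate by array set in both treatments. CCN2 lies at 10.73 to 10.96 in set 2 and 9.69 to 10.01 in set 1.

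The matrix and contractile targets all had differences above 0. THBS1, a matricellular activator of latent TGF-beta, had 0.05 ± 0.08, TGFBI, an extracellular matrix protein named for its induction by TGF-beta, 0.12 ± 0.09, and the tropomyosin gene TPM1 0.11 ± 0.11 (SE, n = 5), the last being 0.02 without DMSO replicate 1. The ID genes, dominant-negative helix-loop-helix factors induced by BMP through SMAD1 and SMAD5 and repressed by TGF-beta in some epithelial cells, were the one role with every difference below 0. ID3 read 9.35, 9.25, 9.45, 8.47 and 9.02 with PD0332991, against 9.87, 9.47, 9.36, 8.90 and 9.05 with DMSO, overlapping in both sets, for a difference of -0.22 ± 0.14 that was -0.14 without DMSO replicate 1. ID1 had -0.06 ± 0.10 (-0.03 without it). ID2 had -0.07 ± 0.28 (-0.21 without that array), with the largest replicate SD of all members (0.55), and ran from 5.85 to 7.50 with PD0332991 and from 5.71 to 7.53 with DMSO.

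Other genes of both pathways gave 0 calls among 99 measured of 113 listed (54 higher and 45 lower, median 0.02). At an unadjusted p under 0.05, limma gave 1 of them as higher, the ligand gene GDF11 (0.26 ± 0.10), and 0 as lower. The other ligands, carriers and antagonists had a median of 0.07 over 17 genes, with BMP2 at -0.25 and INHBA, which encodes a subunit of activin, at 0.14. The receptors and adaptors had a median of 0.07 over 14 genes, 9 of them higher, which turned to -0.01 with 5 higher without DMSO replicate 1, with the endocytic adaptor gene DAB2 at 0.24, with the BMP receptor genes ACVR1 at 0.18 and BMPR2 at 0.18. The other SMADs and cofactors had -0.03 over 10 genes (CREBBP -0.12, SMAD5 0.10, SMAD9 -0.09), and the other SMAD targets -0.00 over 18 (0.03 without that array), with the fibronectin gene FN1 at 0.16, JUNB at -0.15 and the protease inhibitor gene SERPINE2 at 0.11.

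In the Hippo pathway 12 of 15 kinases and upstream regulators were higher, with a median of 0.11 that was 0.05 with 9 higher without DMSO replicate 1. RASSF5 had 0.15, the LATS cofactor gene MOB1B 0.25 and WWC1, which encodes the Hippo scaffold KIBRA, -0.18. Of the 7 measured YAP, TAZ and TEAD factors 6 were lower, with a median of -0.07 that was -0.04 with 3 higher without that array. TEAD4 had -0.14, TEAD2 -0.08 and WWTR1, which encodes TAZ, -0.18. The other YAP targets had a median of 0.03 over 18 genes (10 higher), or 0.01 without that array, with the membrane repair gene MYOF at 0.28, CCDC80 at 0.32 and the AP-1 subunit gene FOSL1 at -0.38. None of these genes passed, and their lowest limma adjusted p was 1.00.

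The array sets separated several members far more than the treatment did. This comparison of set 2 (4 arrays) with set 1 (6 arrays), with treatment as a covariate in limma, was added after the values had been seen. CCN2 lay between 10.73 and 10.96 in set 2 and between 9.69 and 10.01 in set 1, a 1.93-fold difference (95% confidence interval 1.67 to 2.23, limma adjusted p = 0.00260). ID1 was 1.60-fold higher in set 2 (1.37 to 1.85, limma adjusted p = 0.00926), at 10.81 to 11.04 against 10.14 to 10.43. CCN1 was 1.35-fold higher (1.18 to 1.54, limma adjusted p = 0.0273), at 11.67 to 11.86 against 11.09 to 11.47. ID3 was 1.51-fold lower in set 2 (1.22 to 1.87, limma adjusted p = 0.0460), at 8.47 to 9.05 against 9.25 to 9.87.

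These 3 higher and 1 lower among 28 members stand beside 2.57% and 0.965% of all probe sets. At an unadjusted p under 0.05 they were 7 and 5 members, beside 11.2% and 7.12%. Most members are bright genes, and calls were more frequent there. Of the 4925 bright genes, limma called 253 higher and 56 lower in set 2, and gave 914 and 519 at an unadjusted p under 0.05. CCN2 kept its call in all 10 fits that left out 1 array. ID1 kept it in 8, losing it without DMSO replicate 4 (limma adjusted p = 0.0506) or DMSO replicate 5 (limma adjusted p = 0.0612). CCN1 kept it in 2, without DMSO replicate 1 or 2, and ID3 in 1, without DMSO replicate 1; the other fits gave adjusted p-values of 0.0507 to 0.119 for CCN1 and 0.0534 to 0.166 for ID3 (limma). The differences were of like size with PD0332991 and with DMSO arrays alone: 1.00 and 0.91 for CCN2, 0.64 and 0.71 for ID1, 0.41 and 0.46 for CCN1 and -0.61 and -0.59 for ID3 (log2), although neither treatment alone gave a call. Without overlap between the sets were 5 members with higher values in set 2, these 3 with SMAD7 and PMEPA1, and 2 with lower values, ID3 and AXL, where 6.48% and 2.94% of all probe sets had these patterns. SMAD7 differed by 0.45 ± 0.11 (limma adjusted p = 0.0509) and PMEPA1 by 0.33 ± 0.10 (limma adjusted p = 0.0914).

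**Figure D4:**
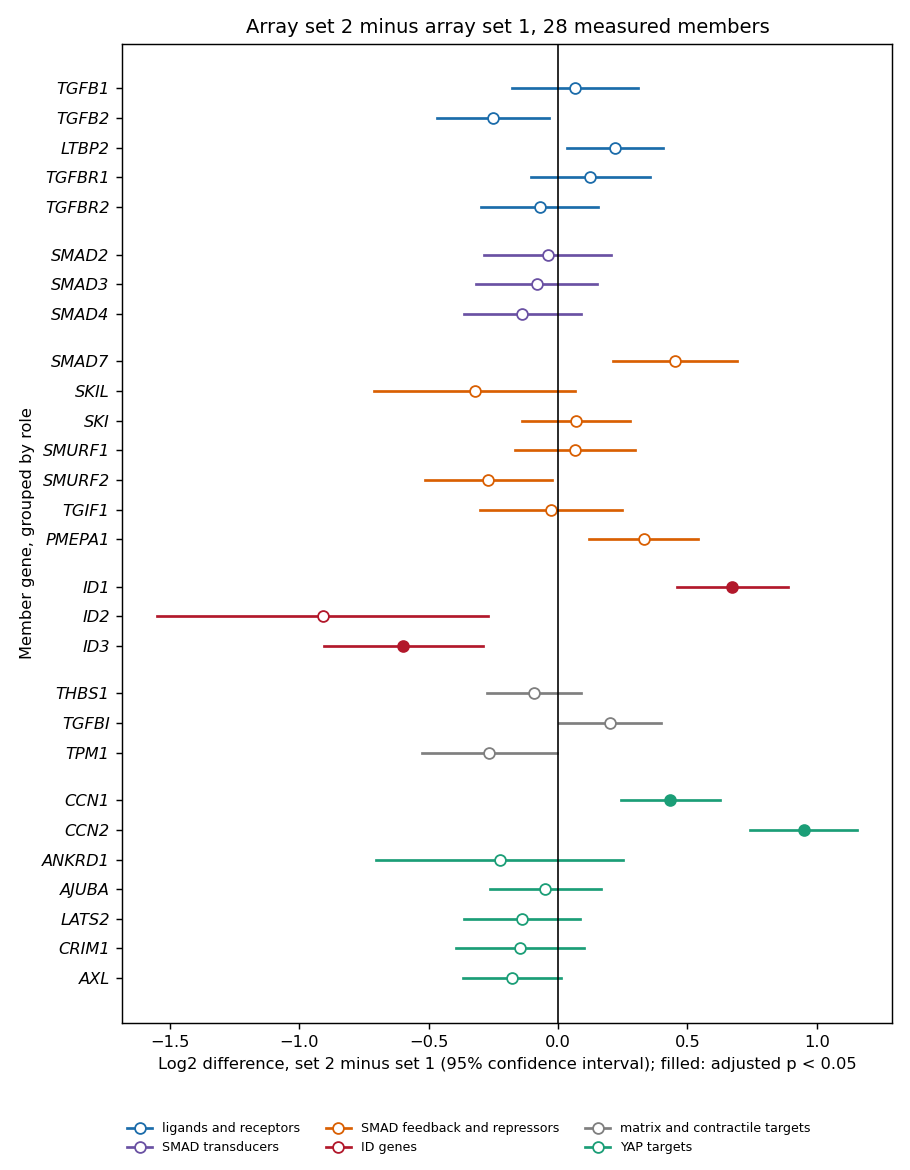
Log2 difference between array set 2 and array set 1 for each measured member (point) with its 95% confidence interval from limma (line), grouped and coloured by role. Filled points mark CCN2, ID1, CCN1 and ID3, the members past an adjusted p of 0.05, and the remaining YAP targets lie at or below 0.

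The YAP targets did not separate as a group. ANKRD1 (-0.23 ± 0.22), AXL (-0.18 ± 0.08), CRIM1 (-0.15 ± 0.11), LATS2 (-0.14 ± 0.10) and AJUBA (-0.05 ± 0.10) had values below 0 and none passed, and the median of the 7 was -0.14, beside 0.05 for all genes. ID2 had -0.91 ± 0.29 (limma adjusted p = 0.119), in the direction of ID3 and opposite to ID1. Among the other pathway genes, 6 of 99 passed as higher and 1 as lower in set 2, beside 2.57% and 0.965% of all probe sets. Of these 99 genes 61 are bright, and 253 of the 4925 bright genes were called higher and 56 lower. The 6 and the 1 are named here after their values were seen. TNFRSF12A, a TNF family receptor and known YAP target, was 1.88-fold higher, and the YAP targets GADD45B and FJX1 1.42-fold and 1.31-fold higher. INHBA and the activin antagonist gene FSTL3 were each 1.49-fold higher and the ligand gene BMP6 1.58-fold, whereas BMP4 was 1.94-fold lower (limma adjusted p = 0.00264 to 0.0423 for the 7). Beside these stood the epithelial marker CLDN4 (log2 difference 1.10) and the blood marker HBB (log2 difference 0.66, dimmer than the lower quartile). Both were called higher in set 2, and 0 of 9 mesenchymal markers were called. Cultures, RNA preparation and array handling cannot be told apart in this comparison.

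The treatment difference was not shown to depend on the array set. In limma, 0 of 21980 probe sets passed the test of the interaction, and 562 (2.56%) had an unadjusted p under 0.05. Of the members, SMAD3 had the smallest interaction p, with differences of 0.18 in set 2 and -0.12 in set 1. Every member's adjusted p was 1.00.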

How the data were processed

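The deposited log2 values, 1 per gene-level probe set and array, were made by the authors with RMA and Partek on build hg18, per the submitters' processing notes, which give no versions or parameters; RMA compresses differences of dim genes. They were used as deposited. Probe sets were named through the platform annotation: of 21980, 14432 carried 1 symbol, 2408 several and 5140 none. Treatment effects were estimated in R 4.3.3 with limma 3.58.1, moderated by eBayes and 2-sided, with array set in the model; p-values were adjusted by Benjamini and Hochberg across all 21980 probe sets, and 0.05 was the threshold. The procedure was tested on simulated data. The members and lists were chosen with earlier results of these data known, and the array set comparison was added after the data were seen. Named genes are all measured members, up to 3 genes of each pathway list with the smallest p, and any that passed. Nothing states that replicates are separate cultures beyond the label "biological", so p-values measure the spread between these arrays, whose number limits the precision. Signals over background were not used here. Promoter windows came from RefSeq (GRCh38.p14) and matched 27 of 31 members. Whether same-numbered arrays pair was not settled. The correlations of their deviations within array sets were 0.09, 0.02 and 0.40 in set 1 and -0.05 and -0.05 in set 2. In set 2, with 2 arrays per treatment, deviations from a mean mirror each other, so both values are equal by construction. The highest value, 0.40, was that of replicate 3, and correlations of differently numbered arrays were not set beside these. Python 3.11.15 and Matplotlib 3.10.9 made the tables and plots.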

Additional observations from a re-analysis of the deposited data

Results flagged for a closer look

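Of 56 groups of 5 arrays (28 members in 2 treatments), 2 held an array far from the others by Dixon's criterion, where chance gives about 1 in 20. SMAD2 stood at 9.72 on PD0332991 replicate 3, with the nearest of the other treated arrays at 9.44. SKI stood at 8.72 on DMSO replicate 3, with the nearest DMSO array at 8.90. Neither was DMSO replicate 1.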

How the results depend on the processing

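No member passed the treatment test under any of the alternatives tried (lowest limma adjusted p 0.587, for CCN2 with array weights), and 17 of 28 members kept their direction throughout. The counts of probe sets called higher and lower, 2 and 9 as reported, were 1 higher without array set and after median centring, 1 and 1 with the replicate block, 4 and 14 on single-symbol probe sets, 13 and 50 with array weights and 0 and 0 in either array set alone. With 1 array left out they ran from 1 to 3 and from 1 to 20, both upper ends without DMSO replicate 1. Members without overlap were 1 higher after quantile normalization, 10 higher and 2 lower in array set 2 alone, and 2 to 5 higher and 0 to 1 lower with 1 array left out. In set 2 alone the pattern needs only 2 arrays per treatment to separate, a much looser demand than over both sets. The share of all probe sets was not counted under these settings, so the counts cannot be read against a background. The median of the feedback genes was 0.018 in set 2 and 0.17 in set 1, that of the components 0.063 in set 2, and that of the YAP targets 0.032 to 0.11 with 1 array left out. Differences near 0 changed sign: SMAD3 (-0.015) and AXL (-0.036) after quantile normalization, SMAD4 (0.0051) and TGIF1 (0.011) after median centring, SMAD2 (-0.052), TGIF1 (0.11) and LATS2 (0.028) with array weights, SMAD3 (-0.12) and AXL (-0.017) in set 1, and TGFB1 (0.087), SMAD2 (-0.0080), SMAD4 (0.012), SMAD7 (-0.015), TGIF1 (0.10), ID2 (0.14), AJUBA (-0.034) and LATS2 (0.074) in set 2. With 1 array left out, SMAD2 ran from -0.042 to 0.063, SMAD3 from -0.032 to 0.071, SMAD4 from -0.063 to 0.038, SKI from -0.062 to 0.016, TGIF1 from -0.057 to 0.076, ID2 from -0.26 to 0.13, AXL from -0.010 to 0.039 and LATS2 from -0.062 to 0.032. The cause was not tested.

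For array set 2 against set 1, the counts of 564 higher and 212 lower probe sets were 389 lower after quantile normalization, 872 and 400 without the dimmest probe sets, 1806 and 1160 with array weights, 320 lower with a trend and robust prior, and 0 and 0 in either treatment alone; with 1 array left out they ran from 76 to 1187 and from 12 to 618. Members called were 5 higher without the dimmest probe sets, 6 higher and 5 lower with array weights, 0 and 0 in either treatment alone, where fewer arrays were fitted, and 1 to 4 higher and 0 to 2 lower with 1 array left out. CCN1 lost its call after median centring (0.40, limma adjusted p = 0.0527). Signs changed for TGIF1 (0.0037 with array weights, 0.062 with PD0332991 arrays alone), SMAD3 (0.067, PD0332991 alone), TGFB1 (-0.087, DMSO alone) and AJUBA (0.014, DMSO alone), and with 1 array left out TGIF1 ran from -0.095 to 0.039, SMAD2 from -0.090 to 0.015 and AJUBA from -0.092 to 0.0082. No replicate block can be fitted to this comparison, because each number lies in 1 set.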
